A study of Gallus gallus with 9 samples.

Results

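The baseline liver of the broiler chicken was described from the 4 arrays of control birds, out of 9 arrays in the series. Arrays were chosen by their label alone: each was titled as a control, from a bird that had been fed the standard diet without added selenium. On these arrays, 27168 of 38535 probe sets carried a single gene symbol and were no array control, and they covered 13009 genes. All of these genes are described here by the level of their signal in the unsupplemented liver. The other 5 arrays, from birds given selenium-enriched yeast, were not used, and no diets are compared.

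The birds were ROSS308 broilers, a commercial meat-type chicken, fed freely from the day after hatching and slaughtered at 35 days of age. Livers were frozen immediately, and RNA of each was hybridised to 1 Affymetrix chicken array. The standard diet followed the nutrient recommendations for poultry, and both groups of the study received it. The design text states that a further control sample failed quality requirements and was left out, so the 4 birds are those that remained. The labels give no sex, batch or scan date. With 1 array per bird, a difference between birds holds both the bird's and the array's share, and in whole liver a higher signal of a cell type's genes cannot be told apart from more RNA per cell.

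The liver makes most proteins of blood plasma, stores and releases glucose, and turns surplus nutrients into fat. In birds it is also the main site of fatty acid synthesis, and surplus nitrogen leaves the body as uric acid, which is built through the purine pathway, rather than as urea. Hepatocytes make up most of its mass, beside Kupffer cells (resident macrophages), sinusoidal endothelium, stellate cells, bile duct cells and the blood within its vessels.

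Values are MAS5 signals, the Affymetrix summary of a probe set's brightness on a linear scale, or means of log2(signal + 16). Each gene was represented by its brightest probe set. A percentile is the share of the 13009 genes at or below a gene's mean, so 100 is the brightest. Probe sets bind with different strength, so a rank describes the order of signals on this array and not the order of mRNA amounts. The median gene had a signal of 310.2, the top 10% began at 3759 and the lower 40% ended at 182. No detection calls were used, so a dim gene is not called absent.

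The brightest genes of the control liver were those of plasma proteins. Among the 25 brightest genes, 12 belonged to the lists of secreted proteins, which held 116 of the 13009 genes. Of the 25, 21 were among the 25 brightest in every single bird. SPP2, which encodes secreted phosphoprotein 24, ranked first with signals of 65524, 53751, 69322 and 64864 in birds 1 to 4. FGG, the gamma chain of fibrinogen, followed with 66291, 54972, 65630 and 63813. ALB, which encodes serum albumin, had 58618, 52096, 65208 and 61015. In all 3 genes bird 2 was the lowest.

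PIT54, the haemoglobin-binding plasma protein of birds, ranked 4 with 58535 ± 5802 (SD, n = 4 birds). The other chains of fibrinogen, FGA and FGB, ranked 6 and 8. Further secreted proteins among the 25 were plasminogen (PLG), apolipoproteins APOA1 and APOH, the vitamin D carrier GC, the retinol carrier RBP4A, transferrin (TF) and vitronectin (VTN). SPP2, APOA2, a further apolipoprotein, and the protease inhibitor A2M were not on the lists of secreted proteins but ranked 1, 15 and 21.

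The rest of the 25 were mostly intracellular. FTH1, the heavy chain of the iron store ferritin, ranked 5 with 57478 ± 4969. LBFABP, the liver basic fatty acid-binding protein of birds, ranked 7 with 55702 ± 4737. THRSP, a nuclear protein linked to fat synthesis, ranked 11, and ENO1, a glycolytic enolase, ranked 19. GATM of creatine synthesis ranked 13 and PSPH of serine synthesis ranked 24. AvBD9, an avian beta-defensin, ranked 12 with 52644 ± 5408, from a probe set that may also read related transcripts. PLG and APOA1 above were read by probe sets of the same kind. SPINK5, named as a Kazal-type protease inhibitor, DHRS7, an oxidoreductase, and LOC100858647, which has no gene name here, completed the set.

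**Figure D1:**
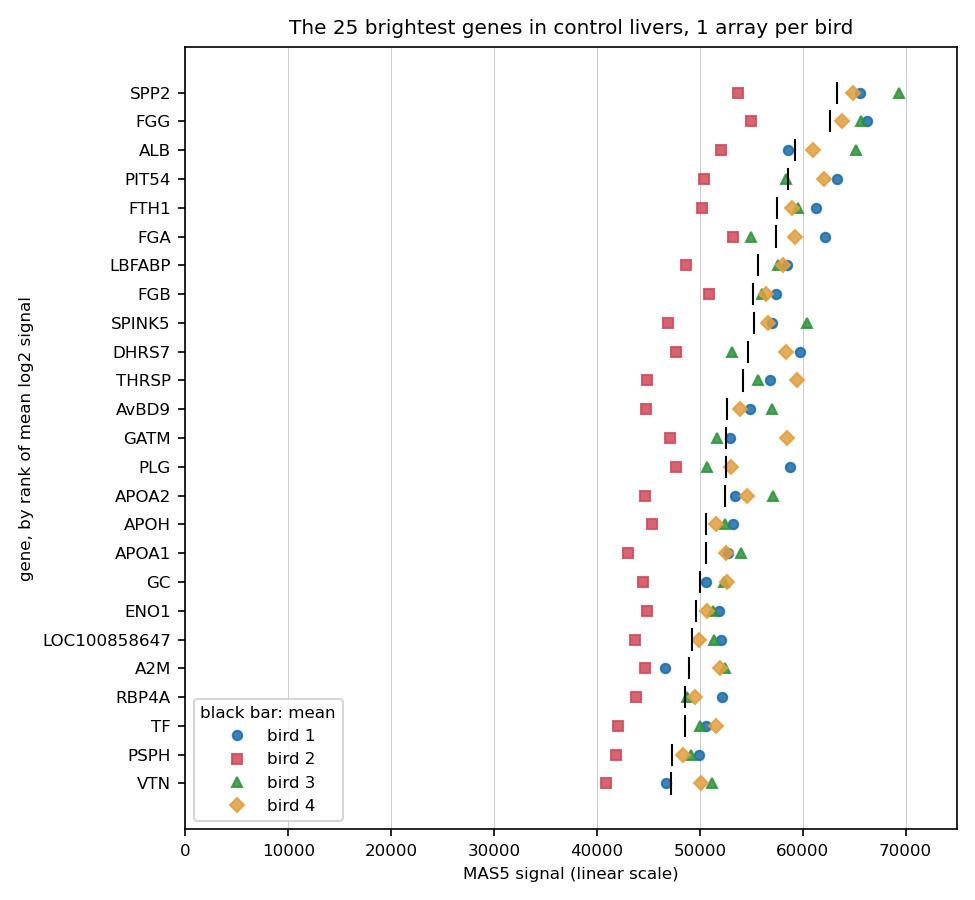
MAS5 signal (horizontal axis, linear, arbitrary units) of the 25 brightest genes in the 4 control livers, 1 point per bird and a bar at the mean of the 4. Bird 2 is the lowest of the 4 in each of the 25 genes, while SPP2, FGG and ALB stand at the top.

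Bird 2 was the lowest bird in 25 of the 25 brightest genes and in 90 of the 100 brightest. The median difference of bird 2 from the mean of the other birds over the 100 genes was -0.23 on the log2 scale. With quantile normalisation, which gives every array the same distribution, bird 2 was lowest in 25 of the 100. After median centring, which leaves the shape of each distribution as it was, bird 2 was still lowest in 77 of the 100 and in 23 of the 25. Its median difference over the 100 was then -0.22. The 100 brightest genes held 16.6% of the summed signal in bird 2, against 18.4%, 18.4% and 18.5% in birds 1, 3 and 4. Ranks within a bird moved little: 78 genes were among the 100 brightest in every bird and 123 in at least 1.

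Of the 100 brightest genes, 27 were on the secreted lists, 16 on the enzyme lists and none on the receptor lists, whose brightest member, GHR, ranked 228. These lists held 116, 239 and 141 of the 13009 genes. Lists with 141 genes would have few members among any 100, so the lack of receptors is not read as a result. Genes of cytosolic ribosomal proteins made up 26 of the 100, led by RPL19 at rank 26. Translation elongation factor EEF1A1 ranked 34. RPL19 and EEF1A1 were named after their values were seen.

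Secreted proteins as a group stood far above the median gene. The lists held 141 genes, of which 116 were measured, and 63 of these were in the top 10%, a class that holds 10% of all genes by definition. Their median percentile was 91.5. The lists were assembled from knowledge of liver biology, but with earlier results of these data known. Genes are also not replicates, so these shares are descriptions without a test.

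Among carrier and acute phase proteins, 23 of 34 measured genes were in the top 10%. TTR, the thyroid hormone carrier transthyretin, had signals of 40743, 34614, 46605 and 40381 in birds 1 to 4, with bird 3 the highest. It was named after its values were seen. At the other end, CRPL1, a C-reactive protein-like gene, averaged 41.3 ± 26.4. The gene named RBP4 was at percentile 1.68 with 10.1 ± 5.0, while its relative RBP4A ranked 22.

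Several acute phase genes, chosen after their values were seen, differed widely between birds. SAA, serum amyloid A, had 2064, 3743, 5428 and 1467 in birds 1 to 4, with birds 2 and 3 above the others. EXFABP, a siderophore-binding lipocalin of the chick acute phase, had 459, 1476, 1435 and 548, again with birds 2 and 3 the higher pair. ORM1, orosomucoid, had 36562, 29664, 40259 and 24560, and there bird 2 was not among the high birds.

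Most clotting and complement genes were bright. In the coagulation list 15 of 23 measured genes were in the top 10%, and the list's median SD between birds was 0.13 on the log2 scale, beside 0.16 for the brightest of 10 equal bins of all genes. F2, prothrombin, had 20180, 19343, 18816 and 17938. TFPI, the tissue factor pathway inhibitor, was the dimmest of them at 66.4 ± 41.6.

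Complement had 14 of 20 measured genes in the top 10% and a median SD of 0.19. A 2-fold range between birds was found in 3 of the 20, or 15%. The share was 25.8% over all genes and 3.77% in the brightest of 10 equal bins. C3, the central component, had 39638, 34968, 35865 and 39787 in birds 1 to 4. C4A had 44746, 43027, 43865 and 43313, and its SD of 0.025 on the log2 scale was the smallest among the 100 brightest genes. MBL2, the mannose-binding lectin that starts the lectin pathway, had 29264, 25273, 23811 and 10352. Bird 4 was clearly below the others there, and MBL2 was named after its values were seen.

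Apolipoproteins split into a bright and a middling part, with 5 of 12 measured genes in the top 10%. APOB, the structural protein of very low density lipoprotein, had 41690, 30864, 36294 and 39563. APOA4 had 35605, 33441, 38223 and 33790. LCAT, which esterifies plasma cholesterol, averaged 15069 ± 1096. PLTP, the phospholipid transfer protein, was the dimmest at 132 ± 40.5.

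Egg yolk precursors, which the liver of laying hens makes under oestrogen, were dim, and 3 of 4 were in the lower 40% that holds 40% of all genes. VTG1 had 13.8, 43.3, 30.1 and 3.87 in birds 1 to 4, and VTG2 averaged 19.0 ± 11.1. APOV1, the apolipoprotein of yolk-targeted very low density lipoprotein, had 931, 75.8, 627 and 65.9. Birds 1 and 3 were thus 1 pair and birds 2 and 4 another, with an 11.6-fold range of signal + 16. The sex of the birds is not in the labels. Of 17 genes that the RefSeq table places on the W chromosome, which females carry, 15 lay below the median gene, and the best known of them, HINTW, had 60.5, 24.0, 82.3 and 53.8.

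Hormones and growth factors were less bright, with 6 of 24 measured genes in the top 10%. LEAP2, the liver-expressed antimicrobial peptide that opposes ghrelin, had 22784, 18148, 23824 and 28326. AGT, angiotensinogen, averaged 20939 ± 5069. IGFBP1, which binds insulin-like growth factors, had 2189, 5088, 5103 and 5199, so bird 1 stood alone below the others. IGF1 itself, chosen after its value was seen, was at percentile 82.6 with 1963 ± 264, and IGF2 at percentile 31.6 with 121 ± 30.8. TGFA was the dimmest at 51.9 ± 27.0.

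**Figure D2:**
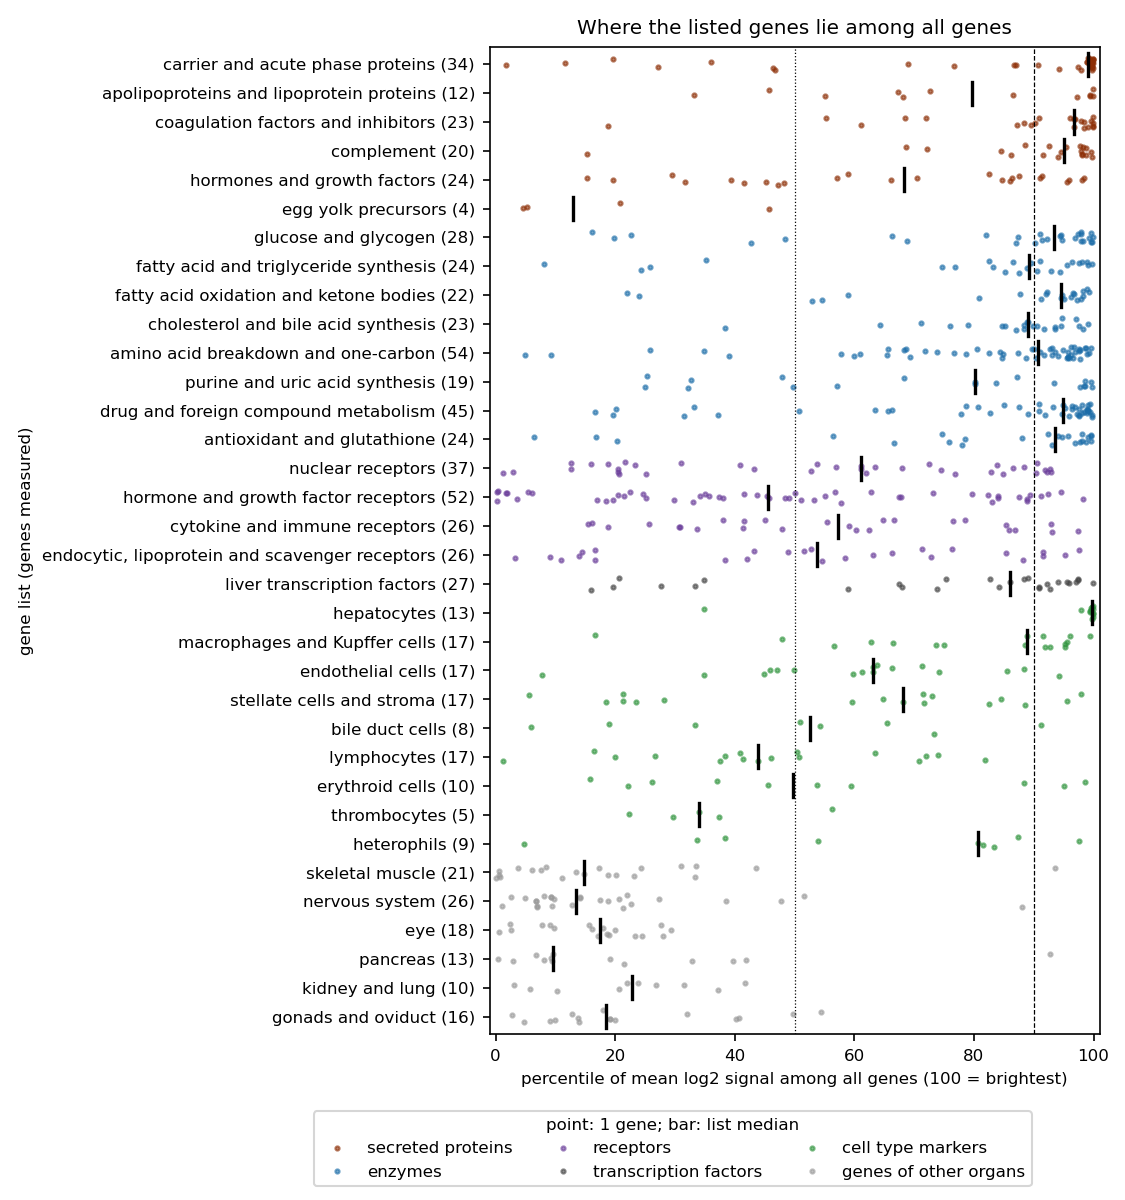
Percentile of mean log2 signal (horizontal axis, 100 = brightest of 13009 genes) for each measured gene of each list, with a bar at the list's median; dashed and dotted lines mark the 90th and 50th percentiles. Carriers, coagulation, complement and most enzyme lists have medians above 88, hormone receptors sit at 45.5, and the lists of other organs lie below 23.

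Metabolic enzymes lay as high among all genes as the secreted proteins. Of 299 listed enzymes 239 were measured, and 132 of these were in the top 10%, with a median percentile of 91.8. The range of list medians ran from 80.3 for purine and uric acid synthesis to 94.9 for drug and foreign compound metabolism.

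In glucose metabolism 18 of 28 measured genes were in the top 10%. GAPDH of glycolysis had 43814, 39729, 48482 and 46066 in birds 1 to 4. FBP1, fructose bisphosphatase of gluconeogenesis, had 39488, 36869, 38175 and 41194. The first steps from pyruvate and the last step to free glucose were dim or varied more.

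PCK1, the cytosolic phosphoenolpyruvate carboxykinase, had 165, 363, 136 and 771, and was chosen after its value was seen. Its mitochondrial counterpart PCK2, which is the main form in chicken liver, had 3137, 7947, 5091 and 4252. G6PC, the catalytic unit of glucose-6-phosphatase, had 20.7, 30.7, 33.7 and 212. Bird 4 was the highest in PCK1 and G6PC, and bird 2 was the highest in PCK2. HK2, the hexokinase of muscle and fat, averaged 65.2 ± 15.7.

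Fat synthesis had 11 of 24 measured genes in the top 10%. FASN, fatty acid synthase, had 44355, 35026, 45582 and 46087. ELOVL6, which elongates palmitate, had 31555, 27530, 29770 and 33326. ME1, malic enzyme, which supplies NADPH to the pathway, had 17522, 15554, 23206 and 26669. In each of these bird 2 was the lowest, as in most bright genes.

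ACLY, which makes cytosolic acetyl-CoA, averaged 16479 ± 2070, and ACACA, the cytosolic acetyl-CoA carboxylase, averaged 11341 ± 2754. ACACB, the mitochondrial form, was the dimmest of the list at 31.8 ± 27.1. SCD, the stearoyl-CoA desaturase, was chosen after its values were seen: it had 2590, 1805, 5595 and 6629, with birds 3 and 4 above birds 1 and 2. The same 2 birds were the higher ones in PNPLA3, a lipase of lipid droplets named for the same reason, which had 7288, 6261, 12729.7 and 11694.

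Fatty acid oxidation had 15 of 22 measured genes in the top 10%. ACADL, long-chain acyl-CoA dehydrogenase, averaged 32001 ± 2420, and ACAT1 of ketone metabolism averaged 27298 ± 2286. CPT1A, the carnitine palmitoyltransferase that admits fatty acids to mitochondria, lay at percentile 54.6 with 499, 455, 242 and 455. It was named after its value was seen. ETFA, an electron carrier of the pathway, was the dimmest at 85.8 ± 60.1.

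Sterol synthesis and bile acid synthesis had 10 of 23 measured genes in the top 10%. MSMO1, a sterol C4-methyl oxidase, averaged 29611 ± 2555. CYP7A1, the rate-limiting enzyme of bile acid synthesis, had 4425, 2417, 1964 and 11369, a 5.75-fold range of signal + 16 with bird 4 the highest. CYP51A1, lanosterol demethylase, was the dimmest of the list at 170 ± 32.9.

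Amino acid breakdown had 29 of 54 measured genes in the top 10%. HPD of tyrosine breakdown had 36076, 32034, 45018 and 46346. MAT1A, which makes S-adenosylmethionine in liver, had 35916, 32344, 29860 and 35598. TAT, tyrosine aminotransferase, averaged 25955 ± 3490.

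Genes of nitrogen disposal were spread over the range. Of the urea cycle, 5 genes were measured, none was in the top 10% and their median percentile was 34.9. CPS1, the mitochondrial carbamoyl phosphate synthetase, had 106, 161, 144 and 153. OTC, ornithine transcarbamylase, had 61.2, 8.29, 17.7 and 6.71, and ASL, argininosuccinate lyase, had 67.9, 29.2, 16.8 and 19.98. All 4 birds were below the median gene in these 3 genes.

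The brightest of the cycle was ASS1, argininosuccinate synthase, at percentile 73.9 with 1552, 1378, 914 and 825. ARG2, the mitochondrial arginase, averaged 177 ± 43.8. These were named to complete the cycle. CPS1 was also the only one of 13 measured hepatocyte markers outside the top 10%. The list of markers follows the mammalian liver, in which CPS1 feeds urea synthesis.

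The purine and uric acid list as a whole had 7 of 19 measured genes in the top 10% and 4 in the lower 40%. Of its 6 genes of de novo purine synthesis 5 were measured, and all 5 were in the top 10% with a median percentile of 98.5. PPAT, the first committed step, had 28756, 23607, 20386 and 27783. GART, a trifunctional enzyme of the path, had 26509, 14985, 23428 and 30826. ATIC, which closes the purine ring, had 40712, 33978, 37540.2 and 42665. Birds 1 and 4 were the higher ones in each of the 3.

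PRPS2, which makes the ribose phosphate for the pathway, ranked 35 with 44167 ± 5360. XDH, xanthine dehydrogenase, which forms uric acid, was lower at percentile 87.2 with 2819, 1605, 2738 and 5162, and it was named after its value was seen. GLUL, glutamine synthetase, which traps ammonia in bird liver mitochondria, had 13475, 16237, 7409 and 7334. It too was named after its value was seen. AMPD1 and AMPD3, the AMP deaminases, were the dimmest of the purine list at percentiles 24.9 and 25.3.

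**Figure D3:**
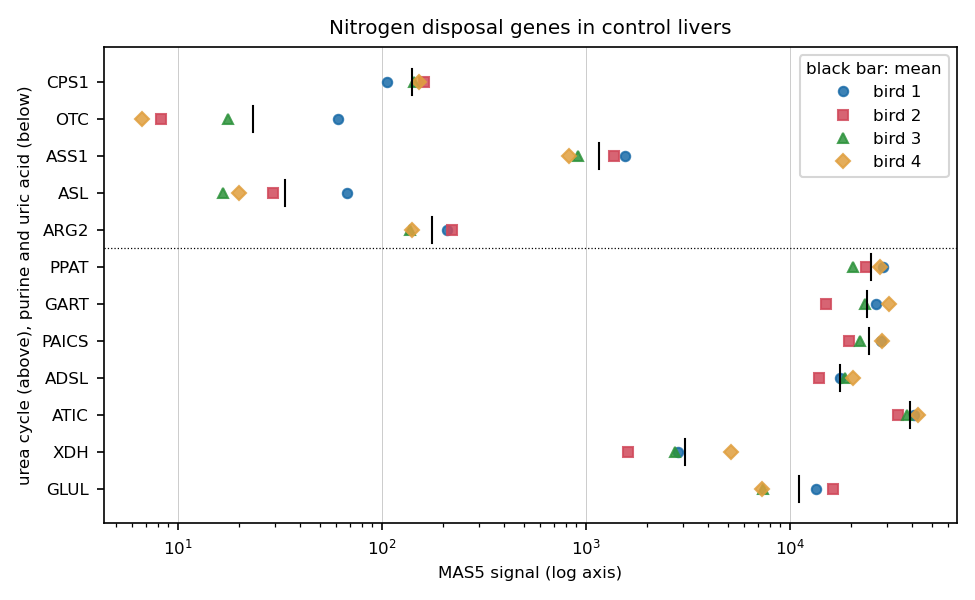
MAS5 signal (horizontal log axis, arbitrary units) of 5 urea cycle genes above the dotted line and of 7 genes of purine, uric acid and glutamine synthesis below it, 1 point per control bird and a bar at the mean. CPS1, OTC, ASL and ARG2 reach at most 221 in any bird, and the 5 purine path genes are at 13981 or above in every bird.

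Enzymes of drug and foreign compound metabolism had 28 of 45 measured genes in the top 10%. ADH1C, an alcohol dehydrogenase, had 45370, 41888, 45400 and 48166. CYP3A5, a broad-range cytochrome P450, had 37940, 33443, 34224 and 35145. CYP2C18, chosen after its values were seen, had 6541, 15795, 15727 and 26422, so bird 1 was the lowest and bird 4 the highest. AOX2, an aldehyde oxidase, was the dimmest at 60.1 ± 35.5.

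Antioxidant genes had 14 of 24 measured members in the top 10%. TXN, thioredoxin, averaged 40615 ± 3194, SOD1, the cytosolic superoxide dismutase, 38903 ± 3703, and CAT, catalase, 37925 ± 5551. The dimmest of the list were GPX7 and GPX8, at percentiles 6.43 and 16.8. TXNRD1, thioredoxin reductase 1, was at percentile 20.4 with 68.9 ± 27.8. Of the selenoprotein genes of plasma, SELENOP1 ranked 111 with 35120, 28662, 26605 and 34192, and GPX3 ranked 342 with 13983, 16468, 11971 and 20069. TXNRD1 and the plasma pair were named after their values were seen, because the birds had received no added selenium. They do not stand for all selenoprotein genes.

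Receptors lay near the middle of all genes. Of 173 listed receptors 141 were measured, and 17, or 12.1%, were in the top 10%, beside 10% of all genes. Their median percentile was 52.8. Hormone and growth factor receptors had the lowest median, 45.5, and nuclear receptors the highest, 61.1.

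GHR, the growth hormone receptor, was the brightest receptor with 24584, 19483, 19668 and 23835. ADRA1B, an adrenergic receptor that drives glycogen breakdown, averaged 7228 ± 1221, and ADIPOR2, an adiponectin receptor, 4990 ± 832. The receptors of insulin and glucagon, chosen after their values were seen, were middling and even between birds. INSR had 418, 418, 526 and 454, and GCGR had 318, 295, 353 and 353. AVPR1A, a vasotocin-family receptor, and ERBB4 were the dimmest, at 4.8 ± 2.0 and 5.1 ± 2.2.

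Nuclear receptors had 6 of 37 measured genes in the top 10%. NR5A2, a regulator of bile acid and cholesterol genes, had 5513, 4816, 6473 and 4810. HNF4beta, a hepatocyte nuclear factor that birds retain, had 4378, 4429, 4937 and 4914, and NR1H3, the oxysterol receptor LXR alpha, averaged 3937 ± 572.5. NR2E1, a factor of the retina and brain, was the dimmest at 9.4 ± 7.7.

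Among immune receptors IL1R1, the interleukin 1 receptor, stood out with 15551, 19634, 15369 and 11607. Its partner IL1RAP averaged 5451 ± 937. CCR7, a homing receptor of lymphocytes, was the dimmest at 51.2 ± 20.9. Of endocytic and scavenger receptors, the fatty acid receptor CD36 averaged 16832 ± 1571, the immunoglobulin transporter PIGR 8276.5 ± 1129, and the macrophage receptor MARCO 4518 ± 932.

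Liver transcription factors had 11 of 27 measured genes in the top 10%. XBP1, the factor of the unfolded protein response that secretory cells need, had 15558, 16723, 15630 and 14768. HHEX, a homeobox factor of liver development, averaged 15405 ± 1832, and PROX1, a hepatocyte factor, 9726 ± 1354. SREBF1, the regulator of lipogenic genes, was the dimmest at percentile 15.96 with 31.8, 11.9, 127 and 82.2.

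The tissue label was set beside marker genes, which were chosen with earlier results of these data known. Many of the hepatocyte markers are plasma protein genes of the lists above, so their level is no independent check. Of 13 measured hepatocyte markers, 12 were in the top 10%, and the list's median percentile was 99.8. Markers of muscle, brain, eye, pancreas, kidney, lung and gonads were dim: of 104 measured genes 92 were in the lower 40%, and their median percentile was 17.2. Exceptions in the top 10% were TNNC1, the slow troponin C, with 4074, 3319, 10182 and 8874, and AMY1A, an amylase, with 4725, 4823, 4888 and 6878. MBP, the myelin basic protein, was at percentile 88.1. Defining genes of muscle and pancreas were at the bottom, with MYOD1 at 3.6 ± 2.1, MB, myoglobin, at 6.3 ± 2.7 and CELA1, an elastase, at 5.9 ± 1.0.

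Genes of the other cell types of liver lay between. Macrophage genes had a median percentile of 88.9, with 8 of 17 in the top 10%. CD74, the invariant chain of antigen presentation, had 28352, 34738, 40951 and 32980, and TIMD4, a receptor of tissue macrophages, averaged 8342 ± 1823. The 2 dimmest macrophage genes were at percentiles 47.8 and 16.6. Endothelial genes had a median percentile of 63.0. Only 1 of 17 was in the top 10%, CDH5, the cadherin of endothelial junctions, at 6848.5 ± 1299. The dimmest were FLT1 and EMCN, at percentiles 34.8 and 7.69. Genes of stellate cells and stroma had a median percentile of 68.1, with 2 of 17 in the top 10% and 6 in the lower 40%. DCN, the matrix proteoglycan decorin, led them with 18790, 17865, 17968 and 17829. ACTA2, the actin of activated stellate cells and smooth muscle, was at percentile 5.65. Bile duct genes had a median percentile of 52.6, with 1 of 8 in the top 10%. They ran from EPCAM, an epithelial adhesion molecule, at percentile 91.2 to CFTR at 5.84, with KRT7, a keratin of bile ducts, at 33.4.

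Blood cell genes differed between birds. The mean log2 level of the 9 heterophil genes was 8.996, 10.18, 9.85 and 9.45 in birds 1 to 4. That of the 10 erythroid genes was 8.69, 9.69, 9.34 and 8.90, and that of the 17 lymphocyte genes 7.70, 8.40, 8.17 and 8.01. In these 3 lists the birds had the same order, with bird 2 the highest and bird 1 the lowest, also after quantile normalisation and after median centring. The same birds had the highest and lowest mean, under each scaling, for the 17 macrophage and Kupffer cell genes, with 11.02, 11.35, 11.23 and 11.09. Of these 17 genes, 9 were highest in bird 2 and 8 were lowest in bird 1, while TIMD4 was lowest in bird 2. After median centring, 6 of them were lowest in bird 1. Of the 6505 genes at or above the median gene, 457 had a 2-fold range between birds. As deposited, bird 2 was the highest in 122 of these 457 and bird 1 the lowest in 141. No such count was made over all genes, so the counts of list members here and below have no direct background. The 5 thrombocyte genes had their highest mean in bird 2 but their lowest in bird 4, with 7.21, 7.72, 7.58 and 7.02. A low mean in bird 1 was not particular to blood cell and macrophage lists. The 8 bile duct genes were also lowest there under each scaling, with 8.12, 8.46, 8.59 and 8.52 as deposited. Their range of 0.48 exceeded the 0.33 of the macrophage list. A list outside the blood cells, the 4 egg yolk precursors, had the largest SD of list means between birds, 0.55, against 0.51 for heterophils and 0.45 for erythroid genes. The hepatocyte mean ran from 14.61 in bird 2 to 14.85 in bird 3. After quantile normalisation its lowest bird was bird 1.

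HBAD, a globin of red cells, had 3887, 27030.4, 9190 and 4616, and HBA1 had 16139, 42174, 28553 and 17834. SLC4A1, the anion exchanger of the red cell membrane, had 208, 1295, 434 and 168. The red cells of birds keep a nucleus. Of the 10 erythroid genes 7 were highest in bird 2 and 5 were lowest in bird 1. The other 3 were in the lower 40% of genes, which held 4 of the 10. RHAG, also in that class and named after its values were seen, was highest in bird 2, with 108, 378, 152 and 93.6. HBZ, an embryonic globin, had 50.8, 16.5, 142 and 37.2, and GYPC, a membrane glycoprotein, had 69.1, 62.7, 92.8 and 69.7, both lowest in bird 2. The globin HBE, named after its values were seen, was highest in bird 4, with 56.7, 61.7, 110.2 and 155. AvBD7, a defensin of heterophils, had 1016, 4003, 3258 and 838. The defensin AvBD1 had 974, 3647, 2727 and 1860, and the cathelicidin CATH1 had 849, 3484, 1955 and 1512. LYG2, a lysozyme on the heterophil list, differed from these, highest in bird 1, with 32331, 12807, 10236 and 17456.

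LECT2, a secreted protein named after its values were seen, had 1120, 6246, 2998 and 2477, which is also highest in bird 2 and lowest in bird 1. SAA and EXFABP above were highest in birds 2 and 3, the birds with the highest heterophil level. The part of blood cells or macrophages in these genes was not tested.

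Spread between birds depended on signal. The arrays were alike, with Pearson correlations of log2 values between 0.967 and 0.972 over all genes, which is a description of 6 pairs of arrays that share probe set brightness. The median SD was 0.16 on the log2 scale in the brightest of 10 equal bins of genes and 0.62 in the second dimmest bin. The highest bird was at least 2-fold above the lowest in 3358 genes, or 25.8% of all, but in 457 of the 6505 genes in the upper 50% of signal, or 7.03%. A 2-fold range was found in 19.0% of secreted proteins, 14.6% of enzymes, 23.4% of receptors and 70.2% of genes of other organs. These shares are not matched for signal. Over all genes the share was 3.77% in the brightest bin, which holds the medians of secreted proteins and enzymes. It was 12.1% in the bin of the receptor median and 72.6% in that of the other organs. One bird stood apart by Dixon's 95% value in 5.55% of all genes.

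**Figure D4:**
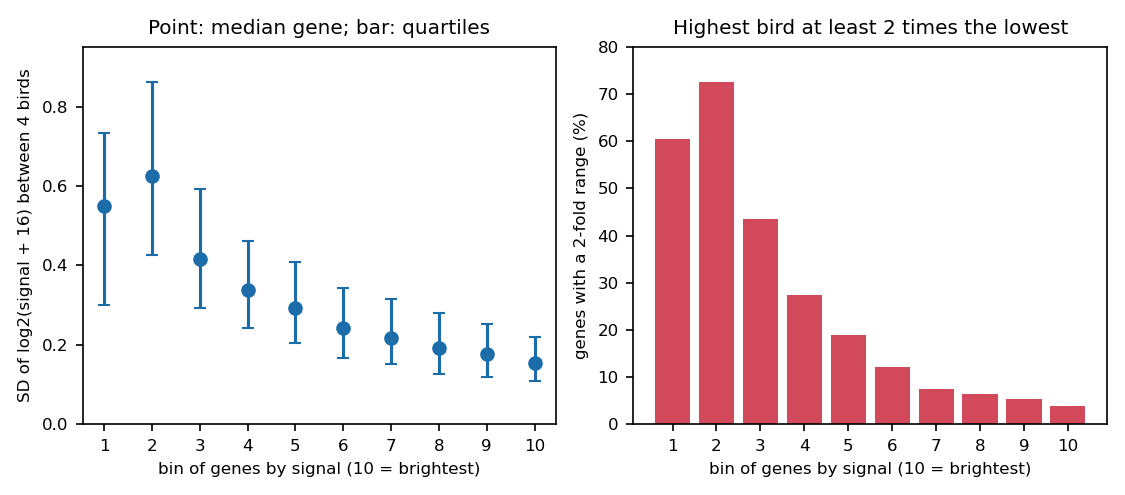
Left, SD of log2(signal + 16) between the 4 control birds by bin of signal, 10 = brightest (point, median gene; bar, quartiles); right, percent of genes whose highest bird was at least 2-fold above the lowest. The median SD is 0.62 in bin 2 and 0.16 in bin 10, and the percent with a 2-fold range is 72.6% in bin 2 and 3.77% in bin 10.

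Among genes in the upper 50% of signal, 15 had the largest SD. AGMO, which cleaves ether lipids, came first with 2602, 2015, 13.01 and 3737, so bird 3 stood apart at a level that was dim. TIMP2, an inhibitor of matrix proteases, had 3598, 2403, 4617 and 424, with bird 4 the low one. VPS26B, a retromer subunit, had 891, 1494.7, 1317 and 199.9, also with bird 4 the low one.

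The 15 included the blood cell genes SLC4A1, HBAD and AvBD7 and the bile acid gene CYP7A1, whose values are above. SPIA3 had 999.6, 1356, 1157 and 241. GFRA1, a co-receptor of glial cell line-derived neurotrophic factor, had 1050.2, 832, 258 and 259. C1orf159 had 626, 679.9, 816 and 2917, with bird 4 the high one. The remaining members were LINC00954, CCDC50, VDHAP, SLC35F3 and LOC107052201, whose ranges lay between 5.08-fold and 6.94-fold of signal + 16.

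**Figure D5:**
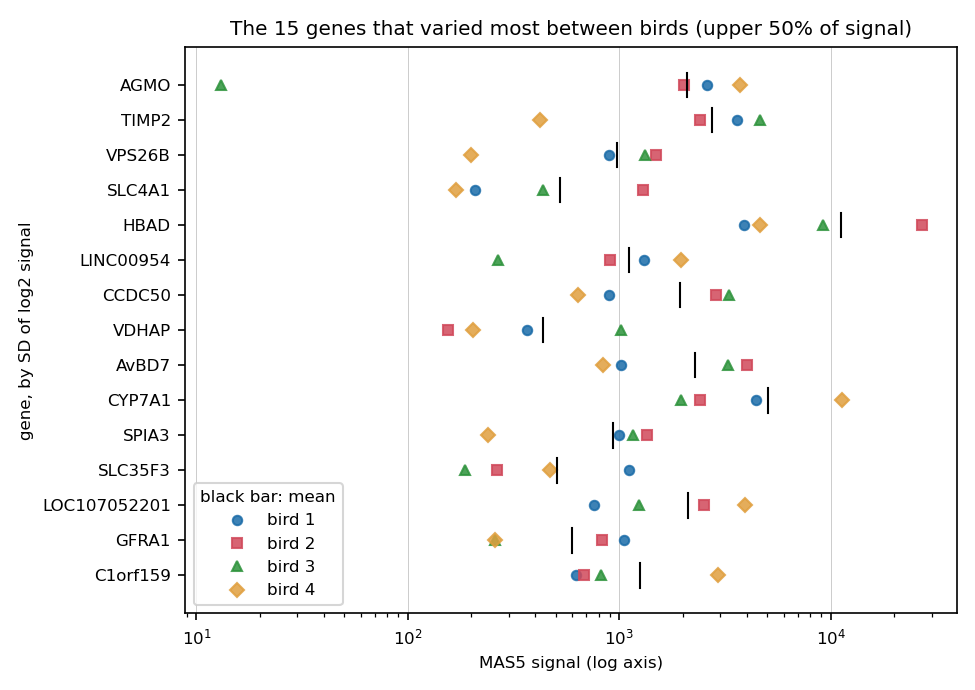
MAS5 signal (horizontal log axis, arbitrary units) of the 15 genes with the largest SD of log2 signal between birds among the upper 50% of genes, 1 point per control bird and a bar at the mean. AGMO is at 13.01 in bird 3 and above 2000 in the others, and HBAD and SLC4A1 are highest in bird 2.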

How the data were processed

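Liver RNA of 4 control birds was measured on 1-colour arrays, 1 per bird. The deposited values are signal intensities on a linear scale that the authors made with MAS5, per the submitters' processing notes, which name no version. After trimming below percentile 2 and above percentile 98, each array averaged 499.9, so levels are relative to the rest of that array. Genes were named from the platform annotation: 177 probe sets with several symbols and 11094 with none here were left out. Of the 27168 used, 26853 matched the RefSeq gene table (GRCg7b), which gave chromosomes, gene classes and gene lengths only. Probe sets ending in _s_at or _x_at may read related transcripts.

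Computed here were log2(signal + 16), the brightest probe set of each gene, means and SDs over birds, percentiles over 13009 genes, and Dixon's ratio for 1 bird apart (0.829 for 4 birds). Taking the brightest probe set favours genes with several. Of 7334 such genes, 3713 (50.6%) had probe sets that differed by 2 log2 units or more, so single levels depend on this choice. There was 1 group, so nothing was tested, and the number of arrays limits precision. Each array is a labelled biological replicate. Python 3.11.15, pandas 2.3.3, numpy 2.4.6 and matplotlib 3.10.9 were used, and the scripts were tested on simulated data.

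Genes named were the 25 with the highest mean, the up to 6 brightest and 2 dimmest measured members of each list, the 15 with the largest SD in the upper 50% of signal, and W chromosome genes. Others are marked. The lists, the members and this rule were chosen with earlier results of these data known. Of 898 listed genes 721 were measured; the others were not analysed here.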

Additional observations from a re-analysis of the deposited data

Results flagged for a closer look

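In 13 (8.18%) of the named genes and in 1 of 34 gene lists, 1 control bird stood apart from the other 3 by Dixon's 95% value. Chance alone gives about 1 in 20, and the share over all genes was 5.55%. The named genes include 15 chosen for their spread and others named after their values were seen, so their share is no test against chance. Bird 2 was the low bird in 5 of the genes: APOA1 at 42984, ENO1 at 44845, FASN at 35026, LBFABP at 48618 and TF at 42038, all among the 100 brightest genes, in which bird 2 was lowest in 90. In bird 1, ACLY was low at 13387, against 17362 to 17783 in the others, IGFBP1 was low at 2189, against 5088 to 5199, and DCN was high at 18790.4, against 17829 to 17968. In bird 3, AGMO was low at 13.01, against 2015 to 3737, ADRA1B was low at 5408, against 7650.1 to 7966, and CPT1A was low at 242, against 455 to 499. In bird 4, AMY1A was high at 6878, against 4725 to 4888, and G6PC was high at 212, against 20.7 to 33.7. The mean log2 level of the pancreas list was 6.14 in bird 2, against 6.57 to 6.63 in the others.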

How the results depend on the processing

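Alternatives were an added constant of 1 or 64, quantile normalisation, median centring, the median of a gene's probe sets, leaving out probe sets ending in _s_at or _x_at, leaving out the lower 40% of genes, and leaving out each bird. The median percentile of secreted proteins (91.5) was 89.8 without _s_at and _x_at, 93.3 without the lower 40%, and 91.2 to 92.0 with 1 bird left out. That of enzymes (91.8) was 90.9 with the median of probe sets, 90.9 without _s_at and _x_at, and 89.1 without the lower 40%. That of receptors (52.8) was 56.2 with the median of probe sets and 57.7 without _s_at and _x_at. That of other cell types (60.5) was 63.0, 65.7 and 52.7 with the median of probe sets, without _s_at and _x_at and without the lower 40%, and that of other organs (17.2) was 14.96, 18.8 and 14.5 in the same settings and 15.2 to 17.0 with 1 bird left out. Without the lower 40%, fewer genes form the top 10%: it held 5 receptors in place of 17 and 0 genes of other organs in place of 2. The share of genes with a 2-fold range (25.8%) was 10.05% with a constant of 64 and 9.02% without the lower 40%, since both act on dim genes, and 17.8% to 19.1% with 1 bird left out. The 100 brightest genes shared 71 with the median of probe sets and 80 without _s_at and _x_at, and 96 or more in each other setting; the cause was not tested. Median centring lowered bird 3's median gene to 8.29, against 8.40 as deposited. Of 1699 values of named genes over the alternatives, 109 moved by over 1 SD, 54 of them with the median of probe sets. No paired analysis was possible because only 1 group was used. Protein N-termini and promoter motifs by signal were not run, as no sequence tables were used here. Without detection calls, dim signals cannot be told from background.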

Other observations

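Gene families were grouped by symbol after values were seen, and some of their members are also on the lists. Genes of cytosolic ribosomal proteins had a median percentile of 98.7, with 62 of 76 in the top 10%. Subunits of the respiratory chain and ATP synthase had 95.8, with 52 of 64 in the top 10%, led by COX6A1 of cytochrome oxidase. Proteasome subunits lay at 88.8 (30 genes), mitochondrial ribosomal proteins at 83.5 (67 genes) and chaperones of the HSP and DNAJ families at 70.4 (65 genes). Solute carriers outside the mitochondrial family, which move nutrients and ions across membranes, lay at 41.5 (252 genes), led by SLC27A2, a fatty acid transporter.

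Several further families were dim. HOX genes, which pattern the embryo, had a median percentile of 11.1 and 27 of 30 in the lower 40%. Potassium channels lay at 17.5 (70 genes), keratins at 17.9 (15 genes) and collagens at 34.3 (42 genes), with COL3A1 the brightest collagen. Cytochrome P450 genes were split, with 14 of 43 in the top 10% and 21 of 43 in the lower 40%, between CYP3A5 at the top and CYP24A1, which breaks down vitamin D, at the bottom.

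Avian beta-defensins, antimicrobial peptides, covered the range, with a median percentile of 81.5 over 13 genes. AvBD9 ranked 12, and AvBD10 ranked 93 with 33187, 28698, 34621 and 36599 in birds 1 to 4. AvBD1 and AvBD7 are members of the heterophil list and were lower. The probe sets of AvBD7, AvBD9 and AvBD10 may also read related transcripts. The median SD of the family was 0.67 on the log2 scale, against 0.28 for all genes.

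Genes that RefSeq classes as lncRNA were dim, at a median percentile of 18.3 (66 genes). Genes in the brightest of 10 bins spanned a median of 10.6 kb of genome, against 14.8 to 20.2 kb in the other bins. Of probe sets with no symbol here, 197 of 11094 (1.78%) had a mean signal above the level where the top 10% of genes begins, against 1545 (5.69%) of the annotated ones, and 3 lay above the gene of rank 25.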
